A study of Rattus norvegicus with 9 samples.

Results

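Expression of 40 genes of the cell division cycle was examined in skin of Sprague Dawley rats, with 4 animals treated with carrageenan (CGN) and 5 untreated. CGN is a seaweed polysaccharide used in animals to provoke acute inflammation and pain. Treated rats received 30 mg/kg body weight, had their paws tested for swelling and pressure pain at 3 hours, and gave skin at 4 hours. The controls are titled non-treated, and the labels used here give no dose, paw test or harvest hour for them, nor the injection site, the skin area taken, or the age or sex of the rats. CGN, its injection, handling and the paw tests cannot be told apart in this design. Each array held total RNA of 1 rat.

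The 40 genes were the members of a cell cycle list found by their symbol on the array, all 40 of 40, among 19102 genes with a single name. They stood in 3 classes. Those of G1 and the entry into S phase numbered 10, those of replication licensing and DNA synthesis 14, and those of G2 and mitosis 16. Of the members, 26 had 1 probe set, 12 had 2 and 2 had 3, and the probe set with the highest mean log2 value over the 9 arrays stood for each gene. Values are RMA intensities on a linear scale, means of a group are geometric means, and changes are log2 CGN minus control ± standard error (SE), from limma with Benjamini-Hochberg adjustment over all 19102 genes. A change passed the test at an adjusted p below 0.05. Intensities of different probe sets are not compared with each other.

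Cells enter division from G1, when D-type cyclins with Cdk4 or Cdk6 begin to inactivate the retinoblastoma protein and E2F factors switch on genes for DNA synthesis. Origins of replication are licensed by Cdc6 and Cdt1, which load the Mcm2 to Mcm7 helicase, and geminin (Gmnn) holds Cdt1 in check. Genes of G2 and mitosis are expressed late in the cycle and are repressed outside it by complexes that bind CHR elements in their promoters. In skin, division takes place mainly in the basal layer of the epidermis and in the growing hair follicle.

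The samples matched the skin label in their keratin genes. The basal keratin Krt14 lay between 16910 and 21750 and the suprabasal keratin Krt10 between 24160 and 27400 in the 9 arrays. On the first principal component of all genes, controls scored from -41.3 to -33.0, CGN replicates 2 to 4 from 53.7 to 55.1, and CGN replicate 1 stood apart from both at 20.8. Across all genes, 4243 of 19102 passed the test (22.2%), 1665 higher in CGN (8.72%) and 2578 lower (13.5%), and the groups did not overlap in 3641 (19.1%). The median log2 change of all genes was -0.01.

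Among the 40 members, 2 rose, 5 fell and 33 did not pass the test, and 6 had groups that did not overlap. The share called, 7 of 40, was no larger than the 22.2% of all genes, so the count by itself sets the members apart in no way. In G1, the transcription factor gene Myc rose (1.51 ± 0.16) and so did the cyclin gene Ccnd3 (0.60 ± 0.10), while Ccnd1 fell (-0.71 ± 0.16) and the kinase gene Cdk4 fell (-0.40 ± 0.10). In the licensing and synthesis class, Cdc6 (-0.69 ± 0.15), Mcm7 (-0.60 ± 0.18) and Cdt1 (-0.34 ± 0.11) fell. No mitotic gene passed the test, although the estimates of all 16 were negative, and their CGN arrays differed widely from each other. In whole skin, fewer cells of a type and less RNA per cell cannot be told apart.

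**Figure D1:**
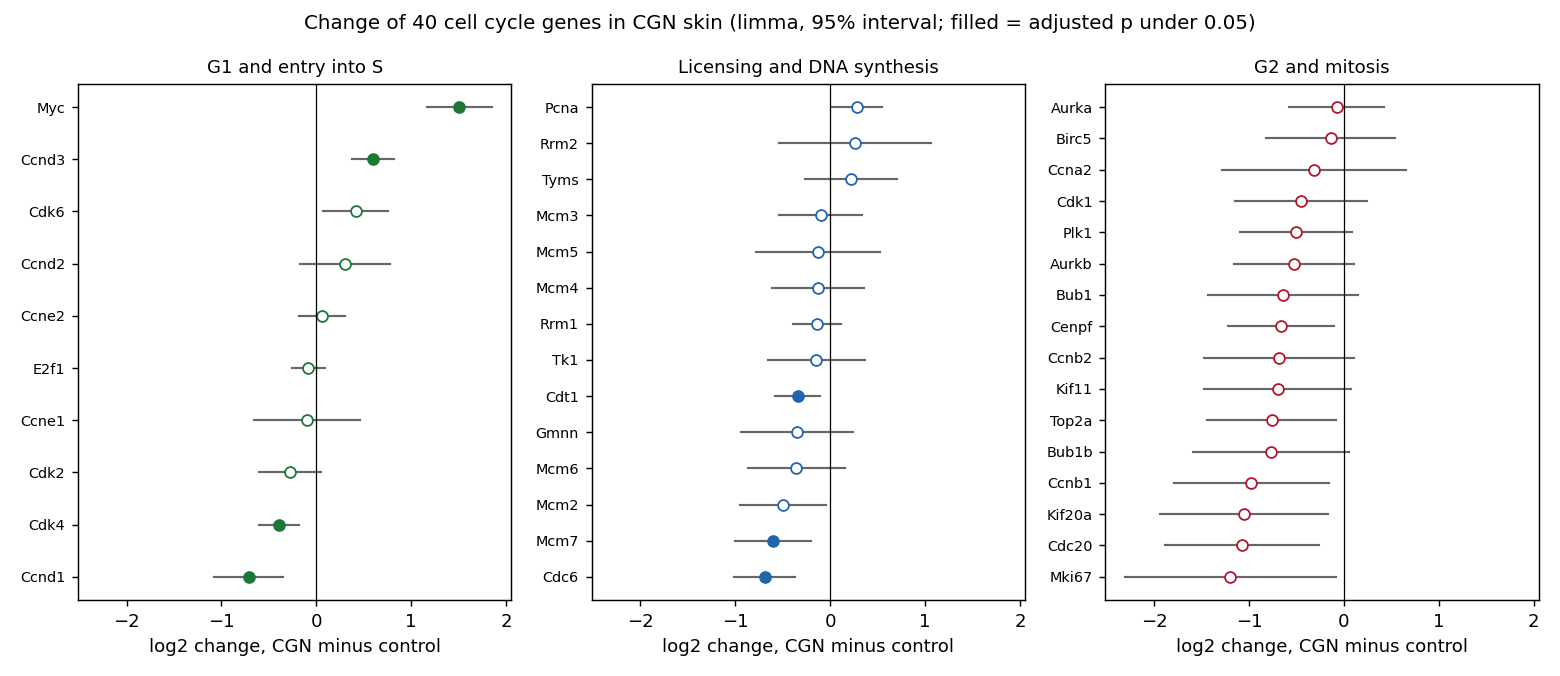
Log2 change (CGN minus control, 4 against 5 arrays) of each member on the horizontal axis, with its 95% interval from limma, in 3 panels by class; filled points have an adjusted p below 0.05. Filled points stand on both sides of 0 in G1, only below 0 in licensing and synthesis, and in no mitotic gene, where all 16 points lie below 0 with wide intervals.

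Myc encodes a transcription factor that drives growth and cell cycle entry. Its intensities were 755, 1096, 1013, 1173 and 1061 in control replicates 1 to 5 and 3634, 3022, 2365 and 2591 in CGN replicates 1 to 4. The lowest CGN array lay above the highest control, and the mean was 2.84-fold that of controls (adjusted p = 7.88e-05). It was the only member to change by more than 2-fold among those past the test.

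The D-type cyclins differed in direction. Ccnd3 read 186, 170.2, 183, 157 and 159 in controls and 223, 257, 291 and 267 in CGN, every CGN array above every control (adjusted p = 0.00192). Ccnd1 read 466, 439, 519, 519 and 445 in controls and 282, 211, 414 and 289.9 in CGN, every CGN array below every control (adjusted p = 0.01). Within CGN, replicate 2 was the lowest for Ccnd1 and replicate 3 the highest, close under the lowest control. Ccnd2 read 553, 494, 659, 356 and 307 in controls and 555, 643, 450.1 and 620.3 in CGN, and the groups overlapped (0.30 ± 0.21, adjusted p = 0.386).

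The partner kinases of these cyclins were measured by separate probe sets. Cdk4 read 1513, 1645, 1620, 1463 and 1472 in controls and 1154, 1063, 1374 and 1113 in CGN, with all CGN arrays lower (adjusted p = 0.0129). Cdk6 read 11.9, 12.1, 12.5, 13.5 and 11.6 in controls and 14.2, 16.7, 23.6 and 13.0 in CGN, where replicate 4 fell inside the control range and replicate 3 stood highest (0.42 ± 0.15, adjusted p = 0.0814). Cdk2, the kinase that acts with E-type and A-type cyclins, read 85.8, 109.5, 94.6, 92.0 and 96.5 in controls and 92.8, 67.0, 98.6 and 61.8 in CGN. Its CGN replicates 2 and 4 lay under all controls while 1 and 3 lay among them (-0.28 ± 0.15, adjusted p = 0.22).

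The E-type cyclins and E2f1 complete the class. Ccne1, whose product activates Cdk2 at the start of S phase, read 79.8, 119.6, 85.1, 119.8 and 88.6 in controls and 78.1, 80.4, 167 and 64.5 in CGN, with CGN replicate 3 above all other arrays (-0.10 ± 0.25, adjusted p = 0.849). Ccne2 (0.06 ± 0.11) and E2f1 (-0.08 ± 0.08), an activator of S phase genes, did not pass the test. Their geometric means were 9.97 and 10.4 for Ccne2 and 13.7 and 12.9 for E2f1 in controls and CGN, in a table whose lowest value was 4.07 and whose median was 16.7 to 17.81 per array. Over the 10 G1 genes, 2 rose and 2 fell, 5 estimates were positive and 5 negative, and the median change was -0.01, the same as for all genes.

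**Figure D2:**
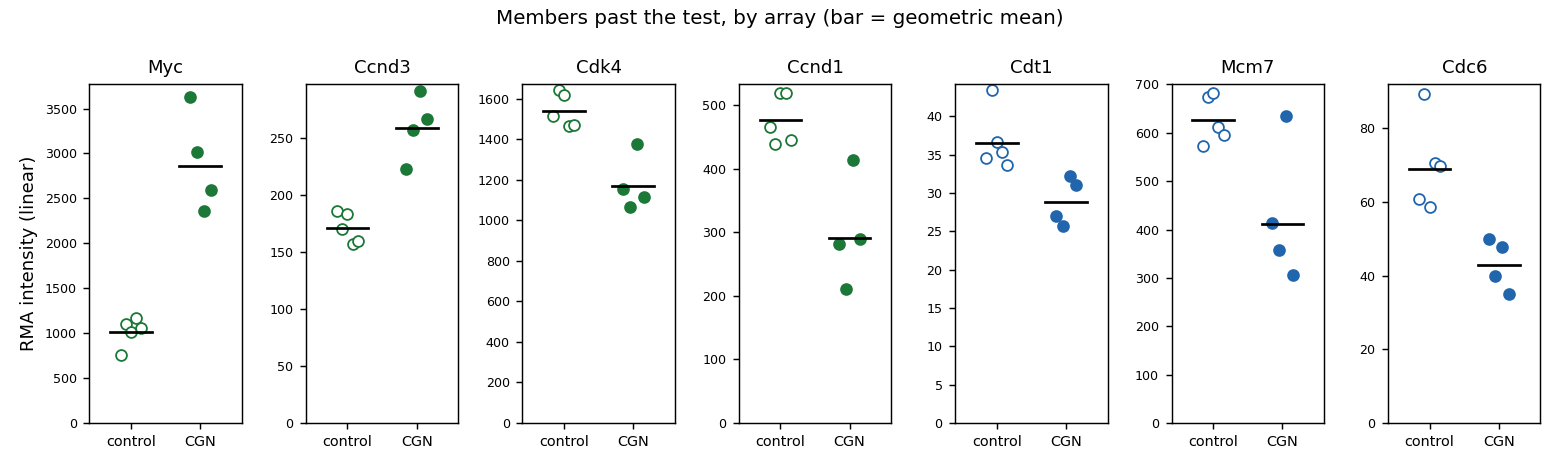
RMA intensity (linear, from 0) of the 7 members past the test, 1 panel per gene, with open points for the 5 control arrays, filled points for the 4 CGN arrays and bars for geometric means. The groups are separate in 6 panels, and in the Mcm7 panel CGN replicate 3 at 634 lies among the controls.

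Licensing genes held the calls of the S phase class. Cdc6, which loads the helicase with Cdt1, read 60.7, 89.4, 58.6, 70.5 and 69.8 in controls and 50.05, 39.91, 47.73 and 35.05 in CGN, with no overlap (adjusted p = 0.00668). Cdt1 read 34.6, 43.4, 36.6, 35.3 and 33.6 in controls and 27.0, 25.7, 32.2 and 31.1 in CGN, also with no overlap but with a narrow gap (adjusted p = 0.0426). Mcm7, a helicase subunit, read 572, 675, 683, 613 and 597 in controls and 414, 358, 634 and 306 in CGN. CGN replicate 3 lay among the controls and the other CGN arrays below them (adjusted p = 0.034).

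The calls of Cdt1 and Mcm7 rested on the full set of arrays. Cdt1 was past the test in 1 of the 9 fits that left out an array, that without CGN replicate 3, and its highest adjusted p was 0.126. Mcm7 was past it without CGN replicate 3 and without control replicate 1 and missed it in the other 7 fits, with adjusted p up to 0.102. The other 5 members past the test stayed past it in all 9 such fits.

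The other helicase subunits did not pass the test. Mcm2 read 317, 393, 397, 350.2 and 347 in controls and 295, 177, 395 and 203 in CGN (-0.50 ± 0.21, adjusted p = 0.116). Mcm6 read 182, 293, 256, 235 and 214 in controls and 179.5, 143, 313 and 137 in CGN (-0.35 ± 0.23, adjusted p = 0.339). In both genes CGN replicates 2 and 4 were the lowest of all 9 arrays, and replicate 3 was close to the highest control or above it. Mcm3 (-0.10 ± 0.20), Mcm4 (-0.13 ± 0.22) and Mcm5 (-0.13 ± 0.30) had intervals that reached from below 0 to above it, and their CGN replicate 3 exceeded every control. Gmnn, the inhibitor of Cdt1, stood at -0.35 ± 0.27 (adjusted p = 0.421).

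The genes of DNA synthesis proper included the 3 positive estimates of the class. Pcna, the sliding clamp of DNA polymerases, read 1682, 2142, 2478, 2222 and 2320 in controls and 2639, 2394, 2949 and 2485 in CGN (0.28 ± 0.12, unadjusted p = 0.0426, adjusted p = 0.135). The groups overlapped only in that CGN replicate 2 lay under control replicate 3. Rrm2, the regulated subunit of ribonucleotide reductase, read 80.9, 183, 111, 125 and 125 in controls and 123, 104, 358 and 95.6 in CGN, where replicate 3 was far above all other arrays (0.26 ± 0.36, adjusted p = 0.696). Tk1, a salvage enzyme that makes thymidine phosphate, read 134, 202, 182, 175 and 149 in controls and 121, 135, 268 and 118 in CGN, again with replicate 3 on top (-0.14 ± 0.23, adjusted p = 0.736). Tyms, the thymidylate synthase gene (0.22 ± 0.22), and Rrm1, the large reductase subunit (-0.14 ± 0.11), did not pass the test. Over the 14 genes, 3 fell and 11 did not pass the test, 11 estimates were negative, and the median change was -0.14 against -0.01 for all genes. That median moved with single arrays, to -0.408 without CGN replicate 3, -0.233 without control replicate 1, -0.084 without CGN replicate 2 and -0.054 without CGN replicate 4.

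The promoters of members were read from RefSeq, assembly GRCr8, as 250 bases before to 50 after the gene start on the gene's strand, and 29 of the 40 members matched. They were searched on both strands for the E2F motif (TTCCCGC or TTGGCGC), the CHR (TTTGAA), the CCAAT box (CCAAT) and the E-box (CACGTG), the last of which is bound by Myc with Max. An E2F motif stood in 8 of 11 promoters of the licensing and synthesis class, 2 of 14 mitotic and 1 of 4 G1 promoters, and in 8.33% of 19005 promoters of the same length. The E-box stood in 2 of 29, those of Cdk4 and Mcm2, against 7.27% of all. The sequences of Mcm7 and Cdt1 follow, since both fell, with motifs in capitals; in Mcm7 an E2F motif and a CCAAT box overlap at the run GCGCCAAT. Positions count the start as 1, with no position 0, and name a motif's leftmost base.
Mcm7, GRCr8 chr12:22163129-22163428, minus strand: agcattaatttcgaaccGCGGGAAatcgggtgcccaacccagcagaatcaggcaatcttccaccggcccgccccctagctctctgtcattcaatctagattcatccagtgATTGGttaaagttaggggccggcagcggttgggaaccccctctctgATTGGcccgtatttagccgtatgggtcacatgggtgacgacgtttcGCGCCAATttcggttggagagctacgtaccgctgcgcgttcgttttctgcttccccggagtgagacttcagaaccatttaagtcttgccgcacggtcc
Cdt1, GRCr8 chr19:67528999-67529298, plus strand: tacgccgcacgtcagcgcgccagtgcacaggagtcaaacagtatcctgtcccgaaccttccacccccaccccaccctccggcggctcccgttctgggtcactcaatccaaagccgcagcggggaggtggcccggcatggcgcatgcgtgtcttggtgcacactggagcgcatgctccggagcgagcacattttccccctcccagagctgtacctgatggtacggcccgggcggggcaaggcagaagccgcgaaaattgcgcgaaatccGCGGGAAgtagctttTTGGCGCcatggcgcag
Mcm7 holds E2F motifs at -233 and -48 and CCAAT boxes at -140, -94 and -45. Cdt1 holds E2F motifs at 19 and 34. A match describes these letters and is not evidence of binding.

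No mitotic gene passed the test with limma, and the lowest adjusted p was that of Cdc20. An unadjusted limma p below 0.05 was found in 6 of 16, beside 33.0% of all genes. A plain test without moderation and limma with trend and robust options also called 0 of the 16, and limma with array weights called 5. Array weights also raised the share called among all genes, to 26.5% against 22.2% in the main fit. The median change was -0.67 and the range -1.20 to -0.08. Intervals were wide, with SEs of 0.23 to 0.50 against a median of 0.12 for all genes.

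Cdc20 and Ccnb1 had the smallest p-values of the class. Cdc20, which activates the anaphase-promoting complex, read 349, 566, 647, 524 and 449 in controls and 341, 119, 483 and 159 in CGN (-1.07 ± 0.37, 95% interval -1.88 to -0.26, adjusted p = 0.06). Ccnb1, the B-type cyclin that activates Cdk1, read 202, 351, 368, 259 and 298 in controls and 203, 75.9, 311 and 97.6 in CGN (-0.97 ± 0.37, adjusted p = 0.0858). In both, CGN replicates 2 and 4 were far below all controls, replicate 1 was near the lowest control and replicate 3 lay inside the control range. Ccnb2, the other B-type cyclin, read 366, 805, 817, 645 and 602 in controls and 469, 240.3, 808 and 249 in CGN (-0.68 ± 0.36, adjusted p = 0.221). Cdk1 itself read 422, 720.1, 770, 664 and 541 in controls and 451, 311, 946 and 299 in CGN, replicate 3 being the highest of all 9 arrays (-0.45 ± 0.32, adjusted p = 0.38).

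Structural genes of mitosis and markers of dividing cells were low in the same arrays. Kif20a, a kinesin of cytokinesis, read 294, 526, 554, 448 and 449.5 in controls and 285, 104, 514 and 138 in CGN (-1.05 ± 0.40, adjusted p = 0.0898). Cenpf, a kinetochore protein gene, read 18.2, 28.8, 40.2, 32.5 and 30.8 in controls and 24.8, 12.2, 23.8 and 15.9 in CGN (-0.66 ± 0.25, adjusted p = 0.0891). Cenpf differed from most of the class in that CGN replicate 1, not 3, was the highest CGN array. Top2a, the topoisomerase that untangles chromosomes, read 163, 302, 340.4, 259.7 and 257 in controls and 209, 92.5, 253 and 107 in CGN (-0.76 ± 0.31, adjusted p = 0.108). Mki67, whose product Ki-67 is the standard marker of cycling cells, read 74.5, 173, 236, 129.9 and 152 in controls and 119, 21.6, 128 and 46.5 in CGN (-1.20 ± 0.50, adjusted p = 0.122). It had the largest SD of the class in both groups, 0.61 between controls and 1.22 between CGN arrays on the log2 scale.

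The remaining members were kinases, checkpoint genes, a motor and an S phase and mitotic cyclin. The spindle checkpoint genes Bub1 (-0.64 ± 0.36) and Bub1b (-0.77 ± 0.37), the spindle kinesin gene Kif11 (-0.70 ± 0.35) and the kinase genes Aurkb (-0.53 ± 0.29) and Plk1 (-0.50 ± 0.27) had unadjusted p-values of 0.0641 to 0.102. Estimates closest to 0 were those of the cyclin gene Ccna2 (-0.32 ± 0.44), Birc5 of the chromosomal passenger complex (-0.14 ± 0.31) and the kinase gene Aurka (-0.08 ± 0.23). For these 3 genes too, CGN replicates 2 and 4 were the lowest of the CGN arrays and replicate 3 the highest.

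**Figure D3:**
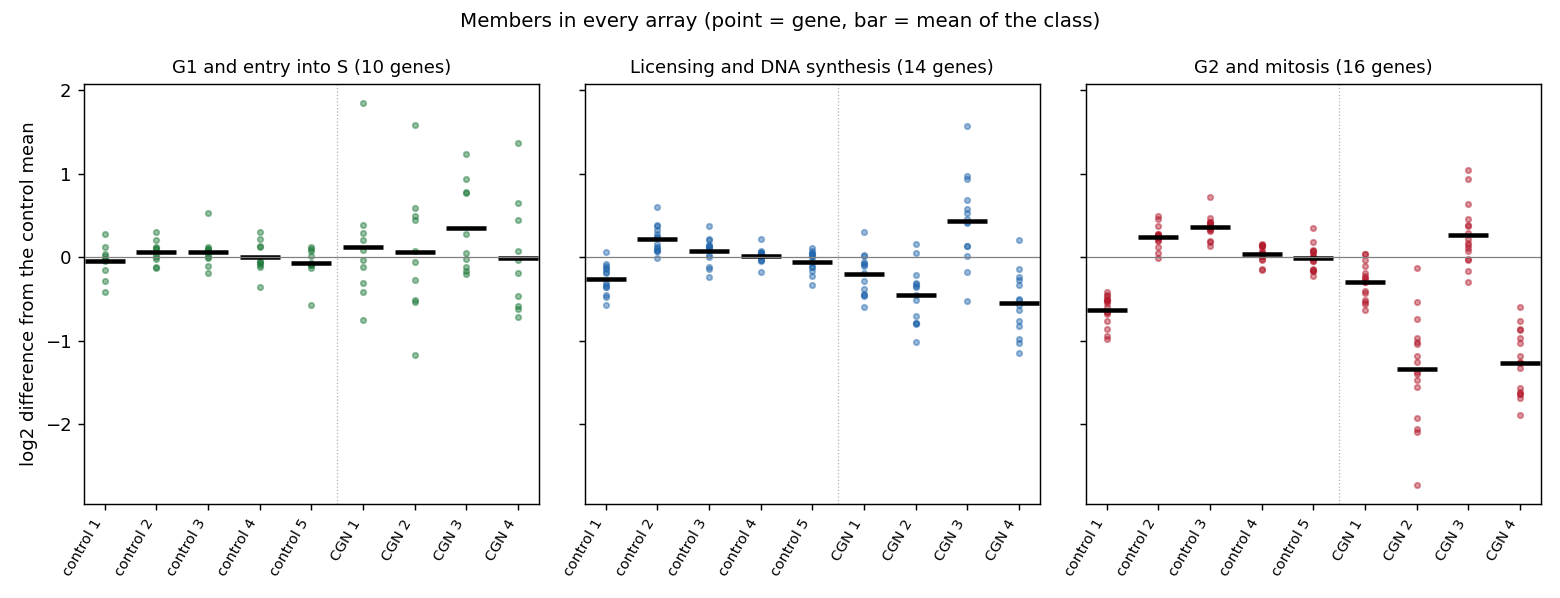
Log2 difference of every member from its control mean (vertical) in each of the 9 arrays (horizontal), in 3 panels by class; points are genes and bars are class means. The mitotic mean is -1.34 and -1.26 in CGN replicates 2 and 4, -0.29 and 0.27 in replicates 1 and 3, and -0.63 in control replicate 1.

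The spread between arrays was the most uniform feature of the mitotic genes, noticed in the values and given as a description. Between CGN arrays the median log2 SD was 0.82 (range 0.41 to 1.22) in mitotic genes, 0.50 in licensing and synthesis genes, 0.25 in G1 genes and 0.17 in all genes. Between controls it was 0.36, 0.23, 0.11 and 0.17. All 16 mitotic genes had a CGN SD above 0.397, the 90th percentile of all genes, and 13 of 16 had a control SD above 0.335, the 90th percentile there. The SD was larger in CGN for all 16, and for 52.2% of all genes. Of the 14 licensing and synthesis genes 10 passed that percentile in CGN, and of the 10 G1 genes 2 did.

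The same arrays were low across the class. CGN replicates 2 and 4 were the lowest CGN arrays in 16 of 16 mitotic genes and in 16.4% of all genes, and both lay under every control in 15 of 16 against 20.9%. Aurka was the exception, with 82.7 and 59.6 in CGN replicates 2 and 4 and 57.1 in control replicate 1. CGN replicate 3 was the highest CGN array in 15 of 16 (25.4% of all genes), and it was under the lowest control in none of the 16. Among controls, replicate 1 was the lowest in 16 of 16, against 24.6% of all genes. In licensing and synthesis genes, CGN replicates 2 and 4 were the lowest CGN arrays in 11 of 14 and control replicate 1 the lowest control in 9 of 14; in G1 genes these counts were 3 of 10 and 3 of 10.

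**Figure D4:**
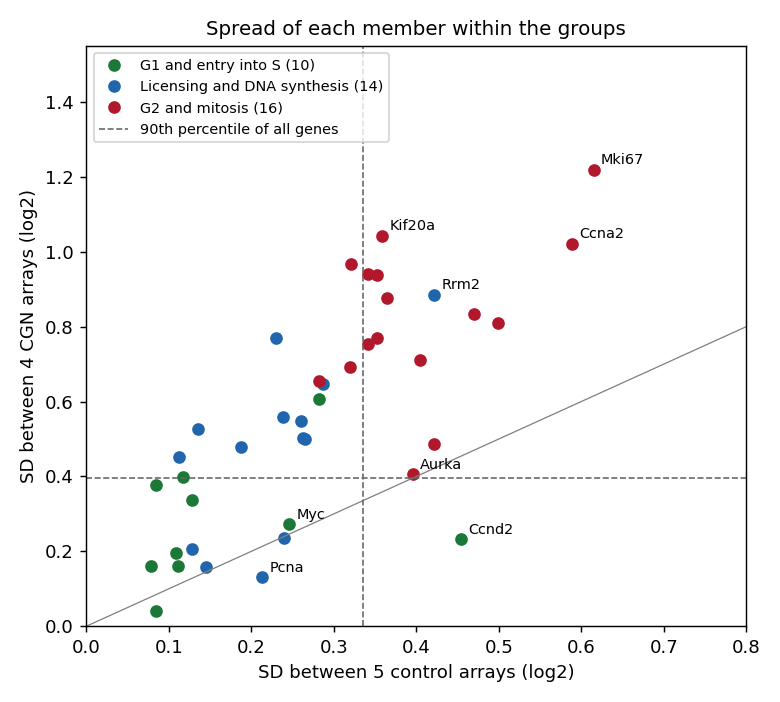
SD between the 5 control arrays (horizontal) and between the 4 CGN arrays (vertical) on the log2 scale, 1 point per member coloured by class, with the line of equality and, dashed, the 90th percentile of all genes. All 16 mitotic points lie above the horizontal dashed line and above the line of equality.

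Among fits that left out 1 array, the number of members called changed most without CGN replicate 3, the array in which 15 of 16 mitotic genes were highest among CGN. Without it, 17 members passed the test, 15 of them lower, and 8 were mitotic, namely Aurkb, Ccnb1, Ccnb2, Cdc20, Cdk1, Kif20a, Plk1 and Top2a. The other 2 members gained were Mcm2 and Mcm6, and the share called among all genes was 18.0%. Without CGN replicate 1, mitotic calls numbered 2 (Cdc20 and Cenpf), without control replicate 1 they numbered 1 (Cenpf), and without each other array 0. The share called among all genes was 25.7% without CGN replicate 1 and 21.2% without control replicate 1. No label sets CGN replicate 3 apart, and the fit on all 4 CGN arrays remains the result.

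CHR elements and CCAAT boxes were common in mitotic promoters. A CHR stood in 9 of 14 mitotic promoters, 1 of 11 in the licensing and synthesis class, 0 of 4 in G1 and 17.0% of all. A CCAAT box stood in 11 of 14, 7 of 11, 2 of 4 and 38.4%. The promoters of the mitotic genes with the smallest adjusted p that matched are shown, with CHR and CCAAT letters in capitals, since their members moved together between arrays.
Cdc20, GRCr8 chr5:137255750-137256049, minus strand: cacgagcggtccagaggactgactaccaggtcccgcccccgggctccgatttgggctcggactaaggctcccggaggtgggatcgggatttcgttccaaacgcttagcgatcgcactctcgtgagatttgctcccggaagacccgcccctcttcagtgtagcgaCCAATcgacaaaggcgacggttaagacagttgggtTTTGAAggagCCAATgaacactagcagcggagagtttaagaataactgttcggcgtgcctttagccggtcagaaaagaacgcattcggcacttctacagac
Ccnb1, GRCr8 chr2:33655176-33655475, minus strand: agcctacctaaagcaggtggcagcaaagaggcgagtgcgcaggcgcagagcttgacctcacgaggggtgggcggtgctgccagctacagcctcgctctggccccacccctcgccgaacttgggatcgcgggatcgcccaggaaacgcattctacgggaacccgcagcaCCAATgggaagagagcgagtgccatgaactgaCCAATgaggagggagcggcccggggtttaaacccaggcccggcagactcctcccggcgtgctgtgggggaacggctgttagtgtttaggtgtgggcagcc
Cenpf, GRCr8 chr13:103760837-103761136, minus strand: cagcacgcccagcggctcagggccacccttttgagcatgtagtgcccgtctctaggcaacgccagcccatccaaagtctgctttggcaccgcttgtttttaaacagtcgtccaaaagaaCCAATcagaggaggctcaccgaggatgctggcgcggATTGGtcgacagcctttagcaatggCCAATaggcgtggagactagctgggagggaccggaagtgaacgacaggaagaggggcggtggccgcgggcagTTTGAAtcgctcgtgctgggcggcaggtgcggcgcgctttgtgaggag
Cdc20 holds a CHR at -51 between CCAAT boxes at -86 and -41. Ccnb1 holds CCAAT boxes at -82 and -50 and none of the searched CHR letters in this window. Cenpf holds CCAAT boxes at -131, -95 and -70 and a CHR at 3.

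Inhibitors of the cycle changed in both directions. Of 13 measured CDK inhibitor and pocket protein genes, 2 rose and 6 fell (median -0.40), against 22.2% called of all genes. With a muscle marker covariate 1 of the 13 passed the test, beside 2.53% of all genes. That covariate correlated with group at -0.824. Cdkn1a, the p21 inhibitor induced by stress, read 1743, 1571, 1405, 1436 and 1610 in controls and 3310, 3939, 3011 and 2978 in CGN (1.09 ± 0.11, adjusted p = 6.56e-05). Cdkn1b, the p27 inhibitor, read 1173, 1614, 1626, 1148 and 1386 in controls and 945, 487, 407 and 493 in CGN (-1.32 ± 0.22, adjusted p = 0.00201). Cdkn2b, the p15 inhibitor of Cdk4 and Cdk6, read 1486, 1737, 922, 1869 and 1845 in controls and 893, 207, 254 and 139 in CGN (-2.42 ± 0.45, adjusted p = 0.00327). The groups of these 3 genes did not overlap, and CGN replicate 1 was the CGN array nearest to the controls for Cdkn1b and Cdkn2b. Lin37, a subunit of the complex that represses cell cycle genes in resting cells, fell by 0.68 on the log2 scale.

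Partners and relatives of Myc and E2F also moved. Of 18 measured network factors, 2 rose and 5 fell (median -0.07), where 8.72% of all genes rose and 13.5% fell. None of them passed the test with a muscle marker covariate, beside 2.53% of all genes. Mycl, a Myc relative, read 534, 622, 497, 462 and 515 in controls and 228, 50.4, 67.2 and 69.3 in CGN (-2.61 ± 0.35, adjusted p = 5.21e-04), opposite to Myc. The Max-binding antagonists of Myc, Mxd4 (-1.09 ± 0.15) and Mnt (-0.59 ± 0.09), fell. E2f5, a repressor of the E2F family, rose from 166 to 384 (1.21 ± 0.17, adjusted p = 7.68e-04), and its 4 CGN arrays had an SD of 0.04 on the log2 scale.

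Replication and mitotic genes outside the 40 were low in the same arrays. Of 43 other replication genes 9 fell (median -0.28), beside 22.2% of all genes called and 13.5% that fell. Those with the smallest adjusted p were the maintenance methyltransferase gene Dnmt1 (-0.97 ± 0.17), the single-strand binding protein gene Rpa1 (-1.003 ± 0.206), the clamp loader subunit gene Rfc1 (-0.76 ± 0.16) and the polymerase alpha subunit gene Pola2 (-0.87 ± 0.18). Of 55 other mitotic genes 8 fell (median -0.50), a share near the same 13.5%. Those with the smallest adjusted p were the checkpoint gene Bub3 (-0.48 ± 0.11), the phosphatase gene Cdc25b (-0.74 ± 0.17), the spindle gene Dlgap5 (-1.11 ± 0.27) and the kinesin gene Kifc1 (-1.13 ± 0.34). CGN replicates 2 and 4 were the lowest CGN arrays in 40 of these 55 and in 27 of the 43, and control replicate 1 was the lowest control in 46 and 28. Without CGN replicate 3 the counts called were 23 of 55 and 19 of 43; among the fits that left out another array, they were 3 to 15 and 6 to 9. The plain test called 2 of 55 and 7 of 43, an offset of 16 before the log 3 and 9, and a muscle marker covariate 0 and 0. These fits called 16.6%, 21.5% and 2.53% of all genes, in that order.

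Among marker lists of skin cell types, that of basal keratinocytes was low in the same arrays. The mean log2 intensity of 9 basal keratinocyte markers was 10.77 to 11.44 in controls, lowest in replicate 1, and 11.28, 10.26, 10.64 and 10.13 in CGN. CGN replicates 2 and 4 were the lowest CGN arrays for 8 of the 9 markers and control replicate 1 the lowest control for 7. In CGN replicate 3 the mean lay below all controls, yet 6 of the 9 markers were not under their lowest control there and 6 were highest there among CGN arrays. Krt5, a basal keratin, read 3693, 4291, 4016, 4082 and 4033 in controls and 3695, 2939, 4508 and 2398 in CGN. It did not pass the test (-0.29 ± 0.16, adjusted p = 0.251). Of the 9 markers 2 fell, where 13.5% of all genes fell. Col17a1, 1 of these 2, read 3601, 4629, 4876, 3782 and 4140 in controls and 3447, 2616, 2726 and 2364 in CGN (-0.60 ± 0.13, adjusted p = 0.00803). Its highest CGN array was replicate 1, and replicate 3 lay below all controls. The part of basal keratinocyte markers in the mitotic and replication values was not tested. CGN replicates 2 and 4 were the lowest CGN arrays in 0 of 8 suprabasal keratinocyte, 0 of 10 fibroblast, 0 of 10 endothelial and 5 of 19 hair matrix and shaft markers. Suprabasal means were 11.73 to 12.48 in controls and 11.73 to 12.11 in CGN. Fibroblast means were 10.24 to 10.68 and 10.59 to 10.82, and endothelial means 7.33 to 8.08 and 7.53 to 7.82. Of the 10 endothelial markers 3 rose and 1 fell, where 8.72% of all genes rose and 13.5% fell. Among the 3 brightest, Kdr rose (0.84 ± 0.16, limma adjusted p = 0.0036), while Pecam1 (0.524) and Emcn (0.187) did not pass the test. Hair matrix and shaft markers (19 genes) had a mean of 5.02 to 5.96 in controls and 4.94 to 5.97 in CGN, highest in control replicate 4 and CGN replicate 1. The hair matrix mean correlated with group at only -0.104, so as a covariate it could move the group differences little. With it, the mitotic median was -0.653 and the licensing and synthesis median -0.152. The calls were 9 other replication and 8 other mitotic genes, as without it. The part of hair matrix markers in the mitotic and replication values was not tested.

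Marker lists of other cell types differed between the groups. Of all genes, 8.72% rose and 13.5% fell. The 21 skeletal muscle markers averaged 8.32 to 10.92 in controls and 5.56 to 7.73 in CGN, and 18 of 21 fell. With that mean, which separated the groups by itself, as a covariate, Myc was the only member past the test and 483 of all genes passed it. The mitotic median was then -0.92 and that of licensing and synthesis genes -0.52. Neutrophil markers averaged 5.13 to 5.39 in controls and 6.24 to 6.71 in CGN (9 of 12 rose), macrophage markers 6.98 to 7.60 and 7.68 to 8.63 (4 of 10 rose), and lymphocyte markers 4.42 to 4.61 and 4.78 to 5.15 (5 of 14 rose). Of the 3 brightest macrophage markers, Lyz2 rose (adjusted p = 1.38e-05), while C1qb (0.635) and Csf1r (0.665) did not pass the test. Of the 3 brightest lymphocyte markers, Cd3g rose (adjusted p = 0.0213), while Cd2 (0.153) and Cd3e (0.963) did not pass it. The macrophage and lymphocyte means were highest in CGN replicate 3. Their part in that array's values for Rrm2, Tk1 and the mitotic genes was not tested. No marker in these lists was at 0, since RMA values have none.

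**Figure D5:**
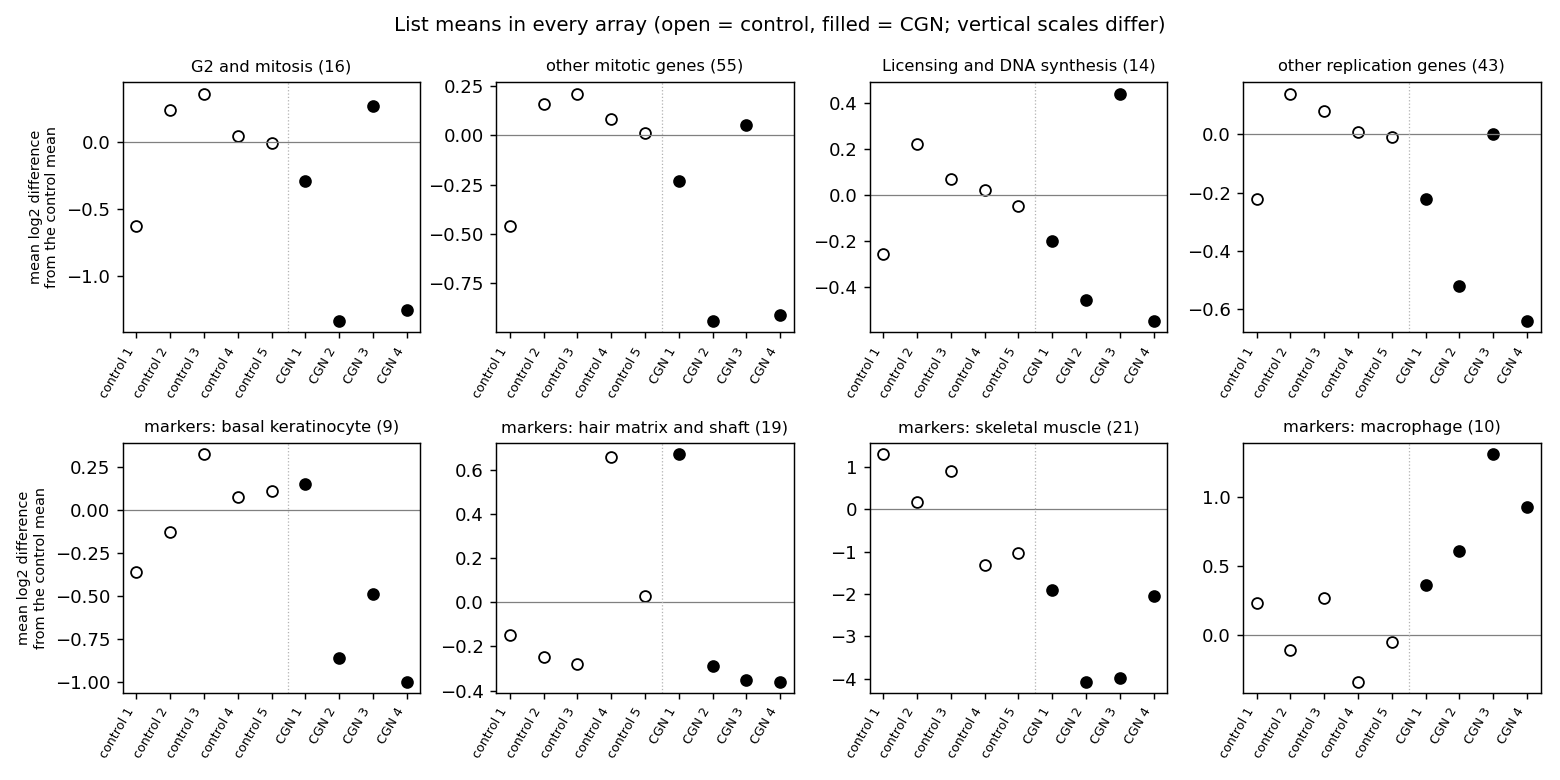
Mean log2 difference from the control mean (vertical, scales differ by panel) in each array for mitotic and licensing members, the other mitotic and replication genes and 4 marker lists; open points are controls and filled points CGN. Mitotic, replication and basal keratinocyte lists share their lowest arrays, CGN replicates 2 and 4, while macrophage markers peak in CGN replicate 3.

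Further probe sets gave a check within the gene. The 14 members with more than 1 probe set had 16 further ones, of which 13 had a change of the same sign as the chosen one and 1 passed the test when all probe sets were tested. That was Cdk4, at -0.42 ± 0.10 (adjusted p = 0.0185). A further probe set for Ccnd1 stood at -0.29 ± 0.11 (adjusted p = 0.117) and did not pass it, and that for Cdt1 stood at -0.01 ± 0.08 (adjusted p = 0.978). The Cdt1 set had means of 9.60 in controls and 9.55 in CGN, below the array medians of 16.7 to 17.81. That low level limits it as a check. For mitotic genes, that for Mki67 gave -1.06 ± 0.41 (adjusted p = 0.134), near the chosen one. That for Top2a gave -0.07 ± 0.10 (adjusted p = 0.74), with means of 25.4 in controls and 24.1 in CGN. The chosen probe sets of Cdk4 and Mki67, and the further one of Mki67, have names that mark probes able to bind related transcripts.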

How the data were processed

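RNA of 9 skin samples was hybridised to 1-colour arrays after biotin labelling, per the labels' protocols. The deposited values are RMA intensities on a linear scale, per the submitters' processing notes (no version given). Both deposited tables held identical values for the 43685 probe sets they share. The table with gene symbols numbers its CGN columns 1, 2, 3 and 5; the column not matched by number equals, in the other table, the CGN sample labelled replicate 4.

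Probe sets were named from the deposited symbols, updated through RefSeq; 16179 had no single name. Intensities were turned into log2 with no offset or filter and tested by group with lmFit and eBayes of limma 3.58.1 (R 4.3.3), 2-sided. The number of arrays limits the precision, and no scan or slide data were used. On simulated data (19102 genes, 200 changed) limma recovered 44% of changes of 0.5, 90% of 1 and 98% of 2 and 3, with 6 false calls of 18902. The simulated noise was independent between genes, and recovery was pooled over genes drawn from the whole table, whose median SE was 0.12. Mitotic members had SEs of 0.23 to 0.50, so these shares do not apply to them.

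All 40 members may be named; arrays are listed for up to 6 members a class with the smallest adjusted p and the 2 brightest others, with up to 4 genes of other pathway lists and 3 of marker lists. Members and lists were chosen with earlier results of these data known. Alternatives are given in the closing section.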

Additional observations from a re-analysis of the deposited data

Results flagged for a closer look

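Among the 80 sets of values checked (40 members in each group), 5 held an array whose distance from its nearest neighbour was unusually large for the group's range; chance alone gives about 1 in 20. Control replicate 1 was the low array in 3 of them. It read 92.1 for Mcm3 (other controls 122 to 125), 52.8 for Mcm4 (74.2 to 84.3) and 72.4 for Bub1 (143 to 177). Control replicate 5 read 15.4 for Rrm1 (other controls 18.1 to 19.1). CGN replicate 3 read 268 for Tk1, above the other CGN arrays at 118 to 135.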

How the results depend on the processing

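Of 877 member values under 22 alternative fits, 808 kept their direction and side of the threshold, 17 changed sign with the test passed in neither fit, 30 lost the call, 22 gained it and none past the test reversed. Myc stayed past the test in all 22, Ccnd1 and Ccnd3 in 21, Cdc6 and Cdk4 in 20, Mcm7 in 12 and Cdt1 in 8. With array weights, 10 members were called lower and 5 mitotic genes were called, beside 26.5% of all genes called. Without the dimmest 30% of genes 1 mitotic gene (Cdc20) was called, beside 32.1% of the genes kept. The muscle covariate left 483 genes of all, 1 member higher, 0 lower, 1 G1 and 0 S phase calls and an S phase median of -0.521; the cause was not tested. The plain test without moderation called 3 members lower and 1 S phase gene. By the labels' numbers, same-numbered samples did not deviate together (correlations -0.28 to 0.0443, none of the 4 best with its own number). Those numbers give no pairing. CGN replicate 4, which carries the number 5 in its deposited column name, correlated best with control replicate 1. No fit paired it with control replicate 5. A fit with the replicate block used the labels' numbers, so control replicate 5 had no partner and added nothing to the change. It called 2603 genes, 1 member lower and 0 S phase genes, and of the other lists 5 of 43 replication and 0 of 55 mitotic genes. Asking for at least 2-fold gave 1184 genes, 1 member higher, 0 lower, 1 G1 and 0 S phase. An adjusted p under 0.01 gave 2320 genes, 1 member lower, 2 G1 and 1 S phase. Leaving out each array in turn gave 3 to 15 members lower, 1 to 5 S phase calls, 0 to 8 mitotic calls, and a G1 median of -0.043 (without CGN replicate 3) to 0.106 (without CGN replicate 4). In the 150 bases before the start, 6 promoters held an E2F motif and 6 a CHR, against 11 and 10 in the 300-base window.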

Other observations

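A further list of histone genes and genes of histone messages, the nucleus and microtubules had 9 measured. Of the 9, 2 fell, no larger a share than the 22.2% of all genes called. H1f0, a linker histone typical of resting and differentiated cells, read 1571, 2027, 1803, 1713 and 1665 in controls and 959, 492, 765 and 647 in CGN (log2 change -1.33 ± 0.17, limma adjusted p = 0.000351). Slbp, which binds the stem-loop of replication-dependent histone messages, fell by 0.35 ± 0.10 on the log2 scale (adjusted p = 0.0373). Lmnb1, a nuclear lamin gene, stood at 0.36 ± 0.21 and Stmn1, a microtubule regulator of dividing cells, at -0.44 ± 0.21, neither past the test. Stmn1 read 1245, 1169, 1899 and 893 in CGN replicates 1 to 4, with replicate 3 again the highest CGN array.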
